A study of Emberiza melanocephala with 15 samples.

Results

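The genes described here were those whose RNA in the hypothalamus was highest at hour 22 of an extended light day, in photosensitive and in photorefractory birds alike. Members were chosen from the measured values. For each assembled gene the estimated counts of its transcripts were added up and given as CPM, the count scaled to a common library total. A gene was eligible with at least 20 counts in each of the 3 hour 22 libraries, and 25671 of 317533 assembled genes were. The gap was the lowest log2(CPM + 1) of the 3 hour 22 libraries minus the highest of the other 12, and the 200 genes of largest gap were taken, which was 0.779% of those eligible. That these genes were higher at hour 22 follows from the choice, so it is described and not tested.

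The blackheaded bunting (Emberiza melanocephala) is a migratory songbird, and hypothalamus RNA was sequenced from 15 wild-caught adult males with 1 library per bird. The 8 photosensitive birds came from long-term short days, shortened further in the last weeks, and had the unstimulated winter condition. The 7 photorefractory birds were kept on long days until their gonads had regressed and they no longer responded to long days. On the last day the lights stayed on and birds of both states were collected at hours 10, 14, 18 and 22 after lights on, 2 birds in each group except photorefractory hour 22, where a sample failed quality control and 1 bird remained.

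In birds the hypothalamus reads day length directly, through photoreceptors deep in the brain. When light falls in the sensitive part of the day, thyrotropin from the pars tuberalis raises the conversion of thyroid hormone to its active form by deiodinase in the mediobasal hypothalamus, and gonadotropin release follows. In the photorefractory state long days no longer keep the gonads active. The files give assembly identifiers and do not pair them with gene names, so none of the members could be placed in this pathway and no cell type marker of the hypothalamus could be looked up. Members are therefore given by their rank in the gap, and identifiers are printed for the first 2. The tissue was measured in bulk, where fewer cells of a type and less RNA per cell cannot be told apart.

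The libraries held 3176062 to 9403923 estimated counts. The 3 hour 22 libraries, with 8068941, 9403923 and 8951449, were the deepest of the 15. With every library thinned at random to the total of the shallowest, the rule kept 121 of the 200 members. A count of 0 in 1 of the other 12 libraries allows up to 3 counts, or 0.410 to 0.945 CPM, for counting error only. Mean fragment length was 241 to 262 nt at hour 22 and 208 to 256 nt in the other libraries, being shortest in the 2 photorefractory birds of hour 18. Between birds of the same group the spread of gene counts was 7.78 to 22.4 times counting error, as a chi-square divided by its degrees of freedom, and largest at photosensitive hour 10. Among the 12 libraries of hours 10 to 18, bird 2 of photosensitive hour 10 and bird 2 of photosensitive hour 18 stood apart for these genes, as given below. The p-values below set differences against the spread that each model left between birds. In the fit of hours 10 to 18 with state and hour as terms, that spread also held any difference between states that changed with hour. With 1 bird, photorefractory hour 22 added nothing to that spread.

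The 200 gaps ran from 1.09 to 7.14 on the log2(CPM + 1) scale, with medians of 2.36 and 1.29 in the 2 kinds of member described below. Over all eligible genes 4552 had a gap above 0, which was 17.7%, and 275 had a gap above 1. The last 2 members just inside the threshold had gaps of 1.10 and 1.09. The next 2 genes, just outside it, had a gap of 1.09 each, so the limit of 200 does not lie at a break in the values.

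**Figure D1:**
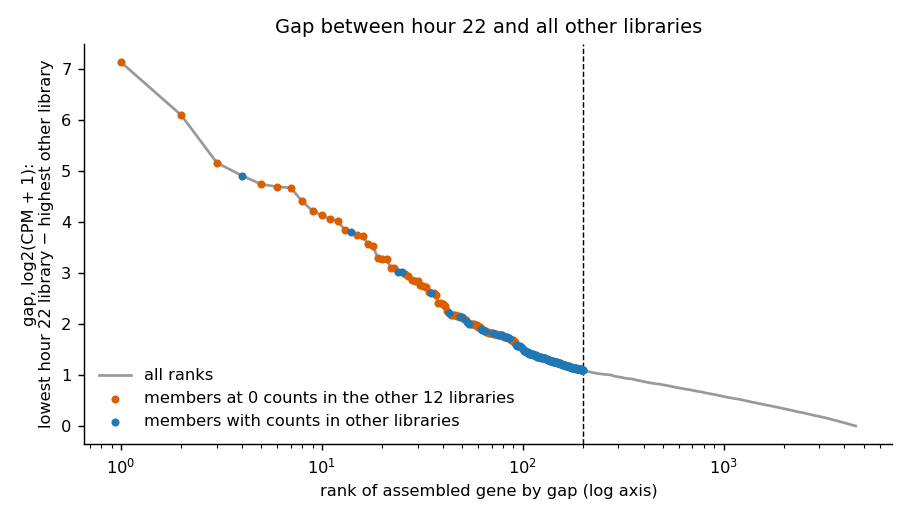
Gap on the log2(CPM + 1) scale (vertical axis) against the rank of the assembled gene (horizontal log axis), for the eligible genes with a gap above 0. Orange points are members at 0 counts in the other 12 libraries, blue points members with counts there, the grey line all ranks and the dashed line the limit at 200; the members at 0 elsewhere hold 42 of the 50 largest gaps.

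The members fell into 2 kinds, a division made after their values had been seen. In 71 of them, called zero-count members here, not a single count was assigned in any of the 12 libraries of hours 10, 14 and 18. The other 129, called detected members, had counts in at least 1 of those libraries. The zero-count members held 9 of the 10 largest gaps and 42 of the 50 largest. All 71 eligible genes with 0 counts elsewhere were members, so none was lost at the limit of 200. Another 11 detected members had at most 3 counts in each of the 12 libraries. At the other end 98 detected members had counts in all 12 and 41 had at least 20 counts in all 12.

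TRINITY_DN75210_c0_g2 had the largest gap. It had 1187 and 1356 counts in the photosensitive birds of hour 22 and 1255 in the photorefractory bird, and 0 in each of the other 12 libraries. In CPM the 3 birds had 147, 144 and 140. The birds of both states were thus nearly alike at hour 22, with a mean of 144 ± 3.47 CPM (SD, n = 3). Against the limit of 3 counts over the 12 libraries pooled, which is 0.0475 CPM, this was at least 3025-fold higher. The gene had 6 assembled transcripts, the longest of 4428 nt.

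TRINITY_DN100266_c7_g1, of rank 2, had 591 and 727 counts in the photosensitive birds of hour 22 and 604 in the photorefractory bird. It also had 0 in each of the other 12 libraries. The 3 hour 22 birds had 73.2, 77.3 and 67.5 CPM, at least 1530-fold above the pooled limit. The 2 members of lowest mean TPM (abundance scaled for transcript length as well as library total) were of the same kind at a far lower level. Rank 67 had 21, 26 and 25 counts in the 3 hour 22 birds, close to the minimum of 20, with a mean of 0.313 ± 0.011 TPM (SD, n = 3). Rank 61 had 23, 27 and 27 counts and 0.349 ± 0.003 TPM. Both had 0 counts in the other 12 libraries, and each was assembled as 1 long transcript, of 5483 and 5274 nt.

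The zero-count members had 66 to 3798 counts summed over the 3 hour 22 libraries, with a median of 116. Their CPM over the 3 birds was at least 52.6 to 3025 times the pooled limit, with a median bound of 92.4. The bound covers counting error only, and the genes were chosen on these same libraries. The median member had 5.21, 4.57 and 4.69 CPM in the 3 hour 22 birds. Together these 71 genes made up 0.0780% and 0.0747% of all counts in the photosensitive birds of hour 22 and 0.0716% in the photorefractory bird.

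**Figure D2:**
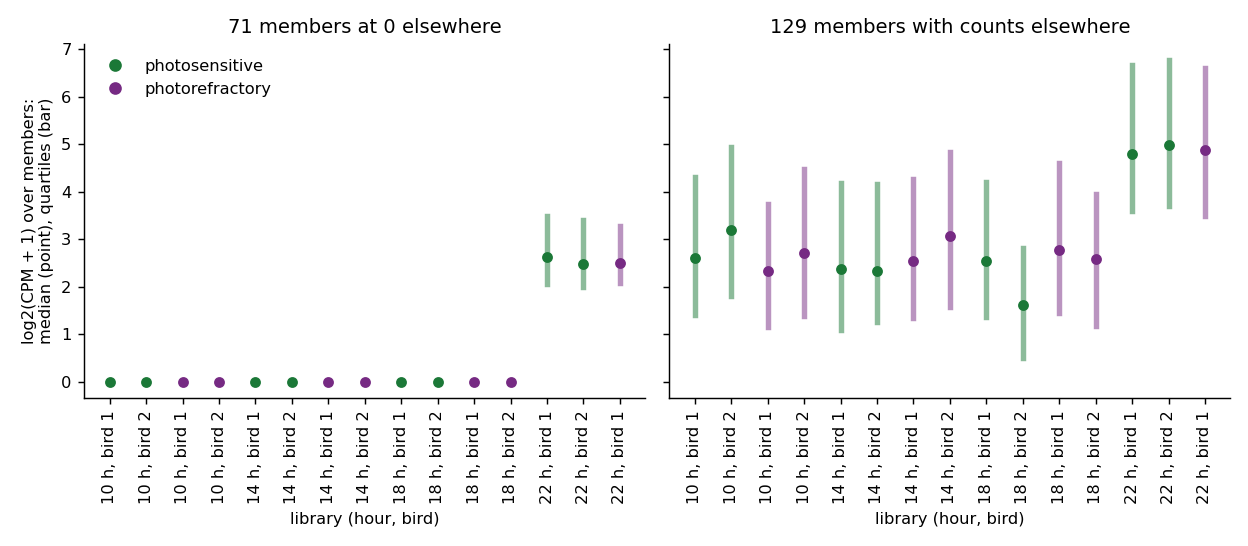
Median (point) and quartiles (bar) of log2(CPM + 1) over the 71 zero-count members (left) and the 129 detected members (right) in each of the 15 libraries, with photosensitive birds in green and photorefractory birds in purple. The zero-count members lie at 0 until hour 22, and the detected members have medians of 1.62 to 3.20 in the 12 libraries of hours 10 to 18 and of 4.79 to 4.98 at hour 22.

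The same count was made for every hour. Genes with at least 20 counts in all libraries of an hour and 0 in every library of the other hours numbered 0 for hour 10, 0 for hour 14, 0 for hour 18 and 71 for hour 22. Hours 10, 14 and 18 had 4 libraries each, and hour 22 had 3, so the demand was stricter at the earlier hours. The 3 hour 22 libraries were also deeper than the other 12, so 20 counts were easier to reach in them and 0 harder. Genes above all libraries of the other hours numbered 15 of 18460, 8 of 19540 and 109 of 13874 at hours 10, 14 and 18, against 4552 of 25671 at hour 22. The opposite direction was counted in the same way. Of 13561 genes with at least 20 counts in all 12 libraries of hours 10 to 18, 0 had a count of 0 in all 3 hour 22 libraries, while 2621 were below all 12. With any count above 0 in all 12 as the demand, 37 genes had 0 counts at hour 22. At the minimum of 20 counts the 71 thus had no counterpart in that direction. The demand there was stricter, however, as it asked for 20 counts in each of 12 libraries, all shallower than the 3 of hour 22.

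The zero-count members also differed little between the 3 birds of hour 22. For each gene the spread of its counts over those 3 libraries was divided by what counting error gives on average. Counting error alone thus gives a mean of 1, and a median somewhat below 1. The median was 0.887 over the zero-count members, with 58 of 71 below 2. It was 4.21 over the detected members, with 45 of 129 below 2, and 3.34 over the 25471 eligible genes that were not members. Genes with few counts show little spread beyond counting, so the same was taken for genes with 150 to 600 counts over the 3 birds, a band set after the values had been seen. There the median was 0.829 over 25 zero-count members, 2.81 over 41 detected members and 3.10 over 10546 other genes. On this measure the 2 kinds of member were apart also at like counts, and the detected members were near the other genes. The highest over the lowest CPM of the 3 birds had medians of 1.27 in zero-count members, 1.29 in detected members and 1.36 in non-members, which are close. The rule used the lowest of these 3 birds and at least 20 counts in each, so the choice favoured genes alike between them. These values are descriptions of 3 libraries, and what sets the zero-count members apart was not tested.

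**Figure D3:**
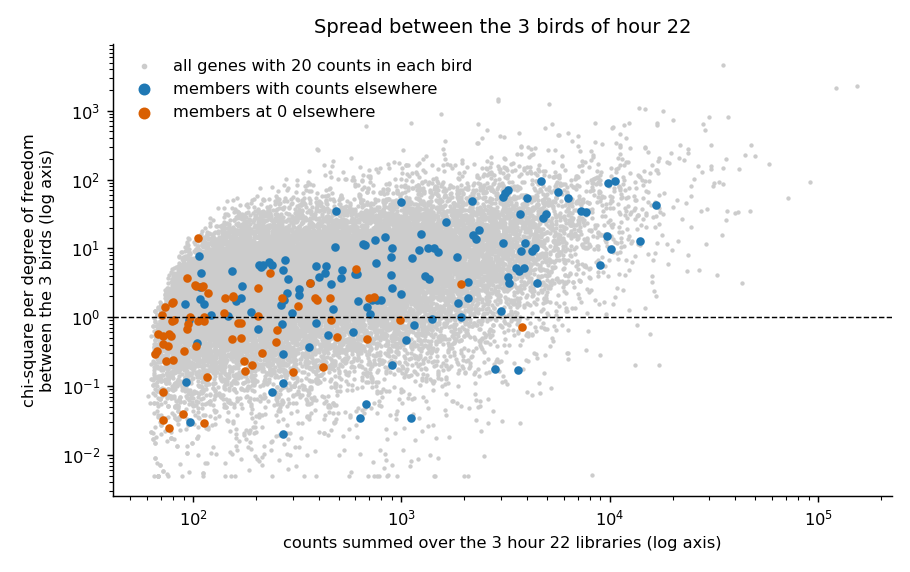
Spread of each gene's counts over the 3 hour 22 birds relative to counting error (chi-square per degree of freedom, vertical log axis, values under 0.005 drawn at 0.005) against its summed counts in them (horizontal log axis), for zero-count members (orange), detected members (blue) and all eligible genes (grey). The dashed line marks the mean that counting error alone gives. The zero-count members lie around it with a median of 0.887 and the detected members mostly above it with a median of 4.21.

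Of the detected members 5 had at most 3 counts over the 12 other libraries pooled, and no fold is given for them. The other 124 had 3.21 to 70.4 times the CPM at hour 22 that they had over the 12, with a median of 5.34 and quartiles of 4.47 and 7.59. All 200 members together summed to 10239 and 10954 CPM in the photosensitive birds of hour 22 and 10036 CPM in the photorefractory bird. In the other 12 libraries their sum was 927 to 2946 CPM. The sum in each hour 22 bird was thus above that in every other bird, as the choice requires.

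The 2 members of highest mean TPM at hour 22 were detected members assembled as short transcripts. Rank 149, whose longest transcript was 748 nt, had 101 and 119 CPM in the photosensitive birds of hour 22 and 126 CPM in the photorefractory bird, or 612 ± 41.6 TPM (SD, n = 3). In the other 12 birds it had 18.3 to 42.1 CPM, with a median of 25.4. Rank 93, of 918 nt, had 72.5, 79.5 and 96.2 CPM in the hour 22 birds and 291 ± 23.4 TPM (SD, n = 3). Its other 12 birds had 6.41 to 23.4 CPM, with a median of 15.6. On CPM the photorefractory bird was the highest of the 3 at hour 22 in both genes. On TPM this held for rank 93 only. Rank 149 had 566 and 647 TPM in the photosensitive birds and 624 TPM in the photorefractory bird.

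The 2 members with the most counts outside hour 22 were well measured in every library. Rank 143 had 530 and 550 CPM in the photosensitive birds of hour 22 and 496 CPM in the photorefractory bird, and 119 to 207 CPM in the other 12, with a median of 159. Rank 173 had 345 and 394 CPM in the photosensitive birds of hour 22 and 359 CPM in the photorefractory bird, and 39.7 to 155 CPM in the other 12 with a median of 91.2. For both genes the hour 22 birds formed a tight group above a wider range.

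The member of rank 122, with 24 assembled transcripts the most among the detected members, varied more. It had 143 and 224 CPM in the photosensitive birds of hour 22 and 158 CPM in the photorefractory bird. In the other 12 birds it ran from 5.61 CPM in bird 2 of photosensitive hour 18 to 55.4 CPM in bird 2 of photosensitive hour 10. The member with the most transcripts of all, 33, was the zero-count member of rank 30, with 63, 86 and 55 counts at hour 22. The last member, of rank 200, had 7.56 and 13.3 CPM in the photosensitive birds of hour 22 and 10.2 CPM in the photorefractory bird, against 0.208 to 3.01 CPM in the other 12.

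**Figure D4:**
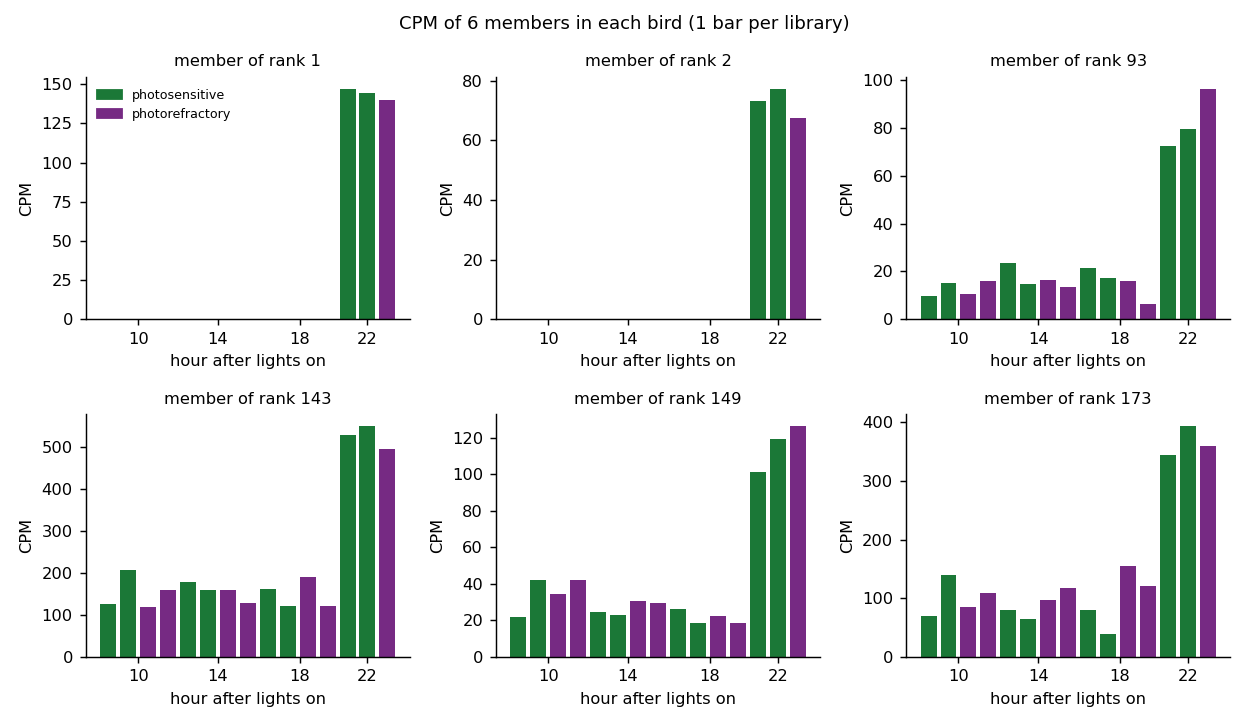
CPM (vertical axis, from 0) of 6 members in each of the 15 birds, 1 bar per library, by hour after lights on, with photosensitive birds in green and photorefractory birds in purple. The members of ranks 1 and 2 have no bar before hour 22, while that of rank 143 has 119 to 207 CPM before hour 22 and 496 to 550 CPM at hour 22.

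Among the 12 libraries of hours 10 to 18 the detected members did not stay level. The median over them of log2(CPM + 1) minus the gene's mean over the 12 was 0.52 in bird 2 of photosensitive hour 10, the highest, and -0.84 in bird 2 of photosensitive hour 18, the lowest. Over all eligible genes the same value ran from -0.23 to 0.16, and the same 2 birds were at its ends. At hour 22 it was 2.23, 2.32 and 2.19 for the detected members and 0.25, 0.23 and 0.27 for all eligible genes. The highest of the 12 other libraries was bird 2 of photosensitive hour 10 in 52 detected members, or 40.3%, against 19.6% of all eligible genes. It was bird 1 of photorefractory hour 18 in 25, or 19.4%, against 10.6%, and that library was the second shallowest. The gap of many members was thus set by a single bird, and without bird 2 of photosensitive hour 10 the rule kept 81 of the 129 detected members and all 71 zero-count members. The gap of a zero-count member does not change when 1 of the 12 is left out.

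The states were also compared at hours 10 to 18. The rule did not use the state labels, but it took the highest value of these 12 libraries into the gap and so kept all 12 low. The comparisons within hours 10 to 18 are therefore not free of the choice, and their counts and medians are given as descriptions. The states were tested with edgeR's quasi-likelihood method over the 12 libraries of hours 10 to 18, photorefractory minus photosensitive with hour as a term, with p-values adjusted over all 57715 genes with at least 5 counts in at least 2 of the 12. Only 112 of the 200 members passed this minimum, and the zero-count members did not enter. At an adjusted p at or below 0.05, 0 of the 112 were called, where 0.00173% of all genes tested were. Among them 0.24 was the lowest adjusted value. With an unadjusted p under 0.05 there were 11, all higher in the photorefractory birds, where 5.72% of all genes tested were higher. Leaving out 1 bird gave 6 to 29, and 2 photosensitive birds moved it by over 1.5 times, bird 2 at hour 10 to 29 and bird 1 at hour 14 to 7. Among the photorefractory birds, bird 1 at hour 10 moved it to 23 and bird 1 at hour 18 to 6. DESeq2 called 0 members and 2.07% of all genes, and limma on log2(TPM + 1) called 0 members and 0.0104% of all genes. The median log2 difference was 0.32 over the 112 members, from 0.19 to 0.48 with 1 bird left out, and -0.10 over all genes tested. The member of rank 173 had a log2 difference of 0.64 with a standard error of 0.22 (edgeR's quasi-likelihood test, unadjusted p = 0.0097, adjusted p = 0.24).

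The same fit compared the earlier hours with each other, where a gene that was high at any of them had a small gap and was less likely to be a member. Between hours 14 and 10, 0 of the 112 were called by edgeR's quasi-likelihood test, as were 0% of all genes, and 0 had an unadjusted p under 0.05, where 2.49% of all genes did. Between hours 18 and 10, 0 were called, where 0.00693% of all genes were, and 4 had an unadjusted p under 0.05, where 11% of all genes did; 1 of them was higher and 3 were lower. That number was not stable when 1 bird was left out. The members' median log2 difference between hours 18 and 10 was -0.37 and -0.04 without photosensitive birds 1 and 2 at hour 18 in turn. Among the photorefractory birds, it was -0.39 without bird 1 at hour 10, and -0.45 and -0.21 without birds 1 and 2 at hour 18. Over all genes tested the median stayed between -0.17 and -0.10 in these refits. DESeq2 and limma on log2(TPM + 1) called 0 members in each, and 0.847% and 0.0121% of all genes between hours 18 and 10. The median log2 differences from hour 10 were -0.14 at hour 14 and -0.23 at hour 18 over the members, and -0.02 and -0.12 over all genes tested. The first turned to 0.11 without bird 2 of photosensitive hour 10. The member of rank 149 was among the 4, with a log2 difference of -0.58 and a standard error of 0.23 at hour 18 (edgeR's quasi-likelihood test, adjusted p = 0.39).

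The change from hour 10 to hour 18 was also compared between the states, as the photorefractory change minus the photosensitive, over the same 12 libraries that the choice kept low. Of the 112 members 0 were called by edgeR's quasi-likelihood test, where 0.567% of all genes tested were, and 0.092 was the lowest adjusted value. With an unadjusted p under 0.05 there were 17, all with the photorefractory change above the photosensitive, where 4.86% of all genes tested were. This count was not stable, and with 1 bird left out the members' median log2 difference ran from 0.44 to 1.74. Over all genes tested that median ran from -0.24 to 0.15. Leaving out photosensitive birds 1 and 2 moved the members' median to 1.16 and 0.51 at hour 10, and to 1.74 and 0.44 at hour 18. Among the photorefractory birds, leaving out bird 1 at hour 10 moved the members' median log2 difference to 0.65. Leaving out birds 1 and 2 at hour 18 moved that median to 0.45 and 1.12. Without bird 1 of photorefractory hour 18, some members under that unadjusted p had the photorefractory change below the photosensitive. The median log2 difference was 0.83 over the members and -0.09 over all genes tested. DESeq2 called 3 members, all higher, where it called 233 of all genes higher and 919 lower, and limma on log2(TPM + 1) called 0, where it called 0.390%. This comparison rests on 2 birds a group, and the low bird 2 of photosensitive hour 18 is in it. Without bird 1 of that group, which leaves the low bird alone, 11 members and 3.09% of all genes were called, and without bird 2 there were 0 members and 0.121% of all genes.

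At hour 22 the single photorefractory bird was compared with the 2 photosensitive birds in a fit of all 15 libraries, under the assumption that it varied like the other groups. All 200 members passed the minimum there, as the choice of genes with at least 20 counts at hour 22 requires. Of these, 112 also passed it within hours 10 to 18, and the rest passed only through their hour 22 counts. The test called 0 of them and 0% of all 70608 genes, and 0 members had an unadjusted p under 0.05, where 2.43% of all genes tested did. DESeq2 called 0 members and 0.0028% of all genes. With limma on log2(TPM + 1) 4 were called, 3 higher and 1 lower in the photorefractory bird, where 101 of all genes were higher and 252 lower. The median log2 difference was -0.13 over the members and -0.03 over all genes tested. On the log2(CPM + 1) scale the difference ran from -0.63 to 1.15. The photorefractory bird was above both photosensitive birds in 45 members and below both in 86, or 22.5% and 43.0%, against 35.8% and 33.7% of all eligible genes. Since a low value in any of the 3 birds lowers the gap, the choice bounds how far these birds could differ.

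The rise to hour 22 from the mean of hours 10, 14 and 18 was compared between the states in the same fit. Of the 200 members 0 were called by edgeR's quasi-likelihood test, as were 0% of all genes. With an unadjusted p under 0.05 there were 2, both with the smaller rise in the photorefractory state, where 2.52% of all genes tested were. That count was not stable, and leaving out bird 1 of photosensitive hour 18 raised it most. The median log2 difference was -0.24 over the 200 members and 0.13 over all genes tested. Without that bird the medians were -0.33 and 0.03. DESeq2 called 0 members and 0.125% of all genes, and limma on log2(TPM + 1) called 3 members and 0.348% of all genes. The zero-count members had no counts at hours 10, 14 and 18 in either state, so edgeR had no starting level for their rise. In each of those described singly, the standard error of this comparison was far above the difference itself. The edgeR test could therefore not call zero-count members, and its result is read for the detected members only. The choice asked for a rise in both states, so this comparison is not free of it. For the contrast that chose the members, hour 22 against hours 10 to 18, the same fit called 200 of 200 higher, where 19.7% of all genes tested were, and nothing is read from that count.

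The choice was then made in the birds of 1 state and read in birds of the other, which it had not used. The 200 genes of largest gap were taken between the 2 photosensitive hour 22 birds and the 6 other photosensitive birds. In the photorefractory state the hour 22 bird was above all 6 others in 190 of them, or 95%, where 35.6% of all eligible genes were. The median difference between that bird and the highest of the 6 was 1.64 on the log2(CPM + 1) scale over the list and -0.28 over all eligible genes. In the reverse direction the list came from the single photorefractory bird of hour 22. Both photosensitive hour 22 birds were above the 6 others in 134 of 200, or 67.0%, where 25.1% of all eligible genes were, with medians of 1.06 and -0.56. The first list held 121 of the 200 members and the second 88. The hour 22 libraries were the deeper ones in both states. With every library thinned to the total of the shallowest, the counts were 186 and 120 of 200, where 35.5% and 26.7% of all eligible genes were.

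**Figure D5:**
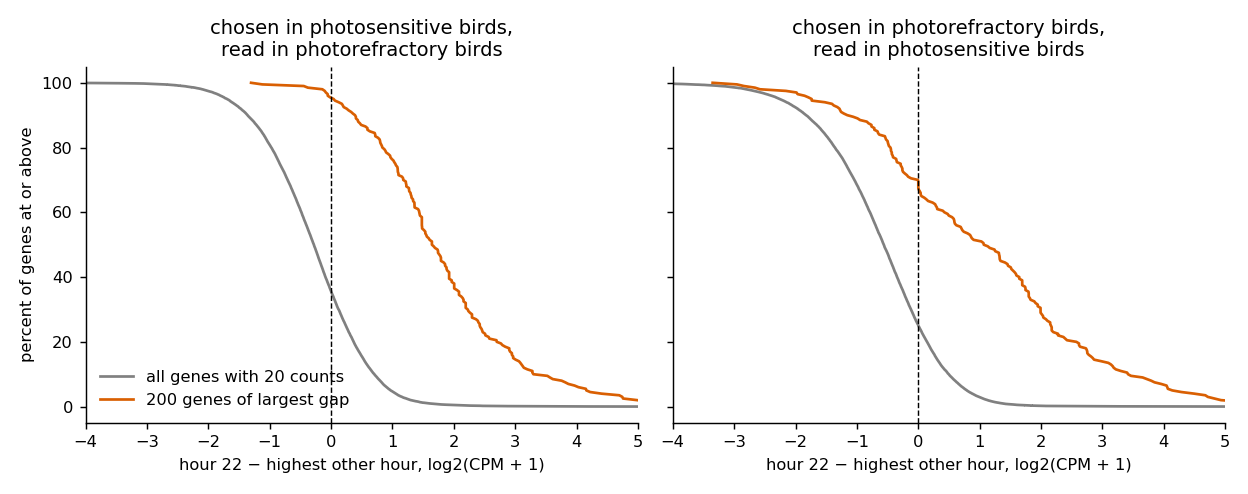
Percent of genes (vertical axis) whose difference between hour 22 and the highest other library of the state that did not choose them is at or above a value (horizontal axis, log2(CPM + 1)), for the 200 genes of largest gap (orange) and all eligible genes (grey). Values beyond the axis limits are not drawn. Just above a difference of 0 (dashed line) the lists stand at 95% (left) and 67.0% (right), against 35.6% and 25.1% of all eligible genes.

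Counts of 0 before hour 22 were read across the states in the same way. Of 90 genes with at least 20 counts in both photosensitive hour 22 birds and 0 in the 6 other photosensitive birds, 89 had 0 counts in the 6 photorefractory birds of hours 10 to 18, and 72 had at least 20 counts in the photorefractory bird of hour 22. None of the 90 had 0 counts in that bird. It was above all 6 other photorefractory birds in 89 of the 90, or 98.9%, where 35.6% of all eligible genes were. In the reverse direction there were 142 such genes in the photorefractory state, of which 120 had 0 counts in the 6 photosensitive birds of hours 10 to 18 and 75 had at least 20 counts in both photosensitive birds of hour 22. Here 6 had 0 counts in both of those birds. Both were above all 6 other photosensitive birds in 126 of the 142, or 88.7%, where 25.1% of all eligible genes were. The share of all eligible genes with such counts of 0 was not taken, so the counts of genes at 0 are descriptions.

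The members were spread over the assembly. A component is the part of the assembly graph from which an assembler splits genes, so near-identical copies or pieces of 1 gene can share it. The 200 members came from 185 components, of which 15 held 2 members and none held more. In 8 of those 15 both were zero-count members, in 4 both were detected, and 3 held 1 of each kind. The pair of ranks 8 and 72, from the same component, had 174, 253 and 181 counts and 20, 30 and 26 counts in the 3 hour 22 birds, and both had 0 counts elsewhere.

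Reads of 1 gene can be divided differently between neighbouring pieces in different libraries, so the counts were also summed over each whole component. The component was then still above all 12 other libraries for 60 of the 71 zero-count members and 117 of the 129 detected members, where it was for 17.6% of all eligible genes. For 18 zero-count and 24 detected members the component held no other gene, so the sum could not change them. Among members whose component held further genes, it was above all 12 for 42 of 53 zero-count and 93 of 105 detected members. This is again the contrast that chose the members, and nothing is read from the difference. For 47 zero-count members the whole component had 0 counts in the 12 libraries, and these include the 18 that were alone in theirs. The components of the zero-count members held 76 further genes with at least 20 counts over the 15 libraries, of which 34 had 0 counts in the 12 other libraries and 2 had 0 counts at hour 22. At hour 22, 40 of the 76 were above all 12 other libraries and 4 were below all 12. Of the 76, 3 were detected members, which the rule had placed above all 12. The same shares over all genes were not taken, so these counts are descriptions. Where the component had counts elsewhere, how reads were divided among its pieces was not tested, and those zero-count members are uncertain in that respect.

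The zero-count members were longer and less abundant than the detected members. Their longest transcript had a median of 3041 nt, against 2057 nt in detected members and 1786 nt over all eligible genes. Of the zero-count members 42.3% had 1 assembled transcript, against 19.4% and 28.1%. Mean TPM at hour 22 had a median of 2.87 in zero-count members, 18.6 in detected members and 9.61 over all eligible genes. The choice bears on these differences, as a gene at 0 elsewhere needed only 20 counts in each hour 22 bird. A gene with counts elsewhere also had to exceed its highest other library by a gap of at least 1.09. Length and abundance are therefore given as descriptions. No zero-count member was among the 1000 genes of highest mean TPM at hour 22, where 10 detected members were, the highest at place 101. The counts at hour 22 were whole numbers to within 0.01 in all 3 birds for 88.7% of zero-count members, 64.3% of detected members and 81.5% of eligible genes. In 104 detected members with more than 1 transcript, the sum without the most abundant transcript was still above all 12 other libraries in 42, where it was in 5.11% of all eligible genes with more than 1 transcript. In the rest of the 104 the separation was seen only with that transcript, and as the rule used this contrast the share is a description.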

How the data were processed

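The authors trimmed the reads with Trimmomatic, assembled them with Trinity, reduced redundancy with CD-HIT and quantified them by kallisto (version not given in the sources) on an index that covered every group. For each of 15 birds and 552023 assembled transcripts the deposited tables give the length, the estimated count without normalization and the TPM. Estimated counts were summed per assembled gene and rounded for the tests. TPM was summed per gene, for levels and for limma.

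The members and all lists were chosen with earlier results of these data known. Genes described singly were the 2 of largest gap, of highest and of lowest mean TPM at hour 22, with most transcripts and with most counts in the other 12 libraries, 2 members of a shared component, and those on either side of the limit. Because no identifier is paired with a name or a sequence in the files, identifiers were printed for 2 members only.

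Tests used edgeR 4.0.16 (quasi-likelihood, TMM factors, Benjamini-Hochberg adjustment over all genes with at least 5 counts in at least 2 libraries) in R 4.3.3. Alternatives were limma 3.58.1 with a pseudocount of 1 or 0.1 TPM on the log2 scale, DESeq2 1.42.0, no minimum, thinning, the bird number as a block and leaving out each bird. Tests were tried on simulated data. The study compared TPM, whereas counts were tested here. Figures were drawn with matplotlib 3.10.9.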

Additional observations from a re-analysis of the deposited data

How the results depend on the processing

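The list depends on the settings of the rule. Of the 200 members, 129 remained with a pseudocount of 5, 119 with a minimum of 10 counts, 117 on TPM, 121 with all libraries thinned to the shallowest and 98 when single transcripts were ranked. Leaving out 1 bird kept 148 to 198, fewest without the photorefractory bird of hour 22, and kept the 71 zero-count members in every case. Leaving out a bird cannot lower the gap of a gene, so that last result was nearly fixed by the choice. Thinning kept 23 of the 71. The number of eligible genes at 0 in all 12 other libraries, whose alternatives were chosen after the data had been seen, was 413 with a minimum of 10 counts, 29 with 50 and 23 after thinning, where fewer genes reach the minimum. It was 71 to 89 with 1 bird left out, which can only keep or raise this number.

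The lists read in the other state gave 163 to 195 and 115 to 155 of 200 with 1 bird left out. No list could be chosen or read without the single photorefractory bird of hour 22, so those ranges do not cover it.

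Leaving out 1 bird called 0 to 11 members in the interaction of state with hour 18, where of these refits that without bird 1 of photosensitive hour 18 called members and the rest called 0. DESeq2 and the fit with no minimum called 3 members each there, all higher. Over all genes DESeq2 called 233 higher and 919 lower there, and the fit with no minimum 365 and 1129. With no minimum 129 members were tested, not 112. That fit called 1 member between the states at hours 10 to 18, where 559 of all genes were higher and 501 lower. Between the states at hour 22 limma called 4 members on log2(TPM + 1) and 2 on log2(TPM + 0.1). Over all genes it called 101 higher and 252 lower on the first scale, and 58 and 419 on the second. In the interaction with hour 22 it called 3 members on log2(TPM + 1), where 84 of all genes were higher and 162 lower. The cause of these differences between settings was not tested. Leaving out 1 bird called 0 to 0 in the remaining 5 comparisons, and 200 to 200 for the contrast that chose the members.

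Birds with the same number did not steadily deviate together (median r of -0.04, from -0.54 to 0.28 over 21 pairs of groups, 7 above 0.1). They were therefore not treated as paired, and whether the numbers hold some other order was not tested. With the bird number as a replicate block 0 members were called in each comparison, and 200 for the contrast that chose them.

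With 2 birds a group, and 1 at photorefractory hour 22, small differences were not detectable. A count of 0 allows 3 counts in a library. Hour 22 libraries were deeper than all others. The sources used here give no sequencing batch for any library, so hour and any such batch cannot be told apart.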
